A study of Mus musculus with 12 samples.

Results

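A set of 7 genes that encode RNA-binding proteins known to act on the choice of Pkm exons were followed in mouse CD4 T cells: Ptbp1, Ptbp2, Ptbp3, Hnrnpa1, Hnrnpa2b1, Srsf3 and Rbm4. They were taken by symbol from the deposited expression tables, as 7 of 55450 genes, and all 7 had enough counts to be tested. The 4 groups, of 3 libraries each, were stimulated KO, stimulated WT, resting KO and resting WT cells. KO cells came from Pkm2 knockout mice and WT cells from wild type mice; the labels give neither the allele nor any Cre driver, nor the animals' age or strain, and do not say whether animals were pooled. The source was naive T cells of spleen and lymph node, kept in culture for 24 hours (overnight, in the sample labels) with 25 ng/mL human IL7, which sustains such cells. Resting cells had IL7 alone, and stimulated cells were also plated on anti-CD3 at 1 ug/mL and anti-CD28 at 2 ug/mL, antibodies that engage the T cell receptor and its costimulatory receptor. Polyadenylated RNA of positively selected CD4 T cells was sequenced. The labels do not state that libraries of a group are separate animals or cultures, so the spread behind each p-value is that among these libraries and may be technical.

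Pkm encodes pyruvate kinase M1 and M2, which carry out the last step of glycolysis. The pre-mRNA holds a pair of mutually exclusive exons, and a transcript keeps either the M1 exon or, downstream of it, the M2 exon. In work on human and rodent cell lines, PTBP1, HNRNPA1 and HNRNPA2B1 bind around the M1 exon and repress it, which leaves the M2 form. SRSF3, an SR protein, favours the M2 exon in human cells, and RBM4 favours the M1 exon in human cells. PTBP2, the form best known from neurons, and PTBP3, known from blood cells, are paralogs of PTBP1. The files hold 1 count per gene, with both forms of Pkm added together, so exon choice itself was not measured.

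The exons between which these proteins choose are shown because the Pkm2 knockout and the factors' known action both concern them. They are given 5′ to 3′ from GENCODE M21 transcripts (mm10, plus strand), in lower case, with capitals at the 64 positions where they differ.

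M1 exon, chr9:59675029-59675195: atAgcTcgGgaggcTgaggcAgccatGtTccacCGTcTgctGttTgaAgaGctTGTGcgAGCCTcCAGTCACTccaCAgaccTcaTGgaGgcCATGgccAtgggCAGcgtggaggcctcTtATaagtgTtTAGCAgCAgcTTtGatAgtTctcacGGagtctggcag

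M2 exon, chr9:59675568-59675734: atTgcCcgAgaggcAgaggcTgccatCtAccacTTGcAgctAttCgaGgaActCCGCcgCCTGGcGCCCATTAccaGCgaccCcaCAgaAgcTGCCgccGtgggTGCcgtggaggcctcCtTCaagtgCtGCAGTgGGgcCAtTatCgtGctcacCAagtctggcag

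Both exons are 167 bases long, they match at 61.7% of positions, and 372 bases lie between them. The PTB-type motif TCTT occurred 1 time in the M1 exon and 0 times in the M2 exon on the sense strand, while 47% of 702 other internal exons of 167 bases held it. TAGGG, a motif of the hnRNP A1 type, occurred in neither exon and in 2.56% of those 702 exons. The introns beside these exons were not examined.

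Pkm was lower in every KO library, which checks the labels. It measured 1056, 1065 and 1036 CPM (a gene's count relative to its library's total, scaled by TMM, edgeR's correction for library composition) in stimulated KO and 2483, 2450 and 2521 CPM in stimulated WT cells. In resting cells it measured 172, 195 and 188 CPM in KO and 424, 431 and 509 CPM in WT libraries. The groups did not overlap in either condition. In edgeR's quasi-likelihood test, which is used throughout with Benjamini-Hochberg adjustment over all genes tested and a threshold of 0.05, the log2 fold change was -1.23 ± 0.03 (SE, adjusted p = 1.4e-08) in stimulated and -1.30 ± 0.08 (adjusted p = 0.00411) in resting cells. The resting call was lost without resting KO replicate 2 (adjusted p = 0.0765) or 3 (adjusted p = 0.0974).

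Libraries held 63266477 to 76891786 counts. In this paragraph CPM were taken over library totals alone, without TMM, whereas the calls used TMM. These CPM are therefore not on the same scale as those given elsewhere. Condition coincided with the table a library was deposited in and with sex-linked transcripts: Xist stood at 822 to 1015 CPM in the 6 stimulated and at 0.0577 to 0.0971 CPM in the 6 resting libraries, and Ddx3y was listed at 0 in the stimulated libraries and at 158 to 188 CPM in the resting ones. The effect of stimulation and that of these differences cannot be told apart. Markers of CD4 T cells (10 genes, none at 0) summed to 2192 to 2282 CPM in stimulated and 3969 to 4767 CPM in resting libraries. B cell markers (10 genes, none at 0) summed to 780 to 813 CPM in stimulated KO, 404 to 606 CPM in stimulated WT, 1803 to 1920 CPM in resting KO and 1268 to 2464 CPM in resting WT libraries. Myeloid markers (10 genes, none at 0) summed to 86.2 to 91.7 CPM in stimulated KO, 35.3 to 58.0 CPM in stimulated WT, 1109 to 1156 CPM in resting KO and 1104 to 2993 CPM in resting WT libraries. Both CD8 T cell markers together, neither at 0, summed to 28.5 to 32.7 CPM in stimulated KO, 15.4 to 21.0 CPM in stimulated WT, 49.8 to 68.5 CPM in resting KO and 45.8 to 51.9 CPM in resting WT libraries. Between genotypes in stimulated cells 6 of 10 myeloid markers, 1 of 10 B cell markers (Ighd) and 1 of 2 CD8 markers (Cd8b1) were called, all higher in KO, and 0 of 10 CD4 T cell markers. Of all genes tested there, 4.76% were called. Erythroid markers were high in replicate 1 of both resting groups, at 1590 CPM in KO and 1683 CPM in WT. The part of these cells in the results below was not tested; in such bulk samples fewer cells of a type and less RNA per cell cannot be told apart.

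Stimulation was accompanied by higher mRNA of 5 of the 7 genes in both genotypes. Hnrnpa1 rose most, to 3.95 times the resting level in KO and 4.33 times in WT cells, followed by Ptbp1 (2.77-fold in KO, 2.97-fold in WT), Srsf3 (2.33-fold in KO, 2.36-fold in WT) and Hnrnpa2b1 (2.00-fold in KO, 2.10-fold in WT). Rbm4 rose 1.37-fold in KO and 1.41-fold in WT cells. Ptbp3 fell to 0.629 of its resting level in KO and 0.638 in WT cells. These shifts stood within a broad response: 82.9% of 17460 tested genes passed in KO (39.6% higher, 43.2% lower) and 84.1% in WT cells (39.3% higher, 44.8% lower), so that passing the test alone does not set the 7 genes apart. Likewise 86.7% of genes in KO and 84.7% in WT cells had no overlap between stimulated and resting libraries, as had 6 of the 7 in KO and 7 of the 7 in WT cells. Their median log2 fold change was 1.00 in KO, against -0.11 over all genes, and 1.07 in WT, against -0.14 over all genes. Scaling by library totals alone moves the median of all genes by -0.33 in KO and -0.34 in WT cells on the log2 scale, and the directions of the 7 genes stay as given.

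**Figure D1:**
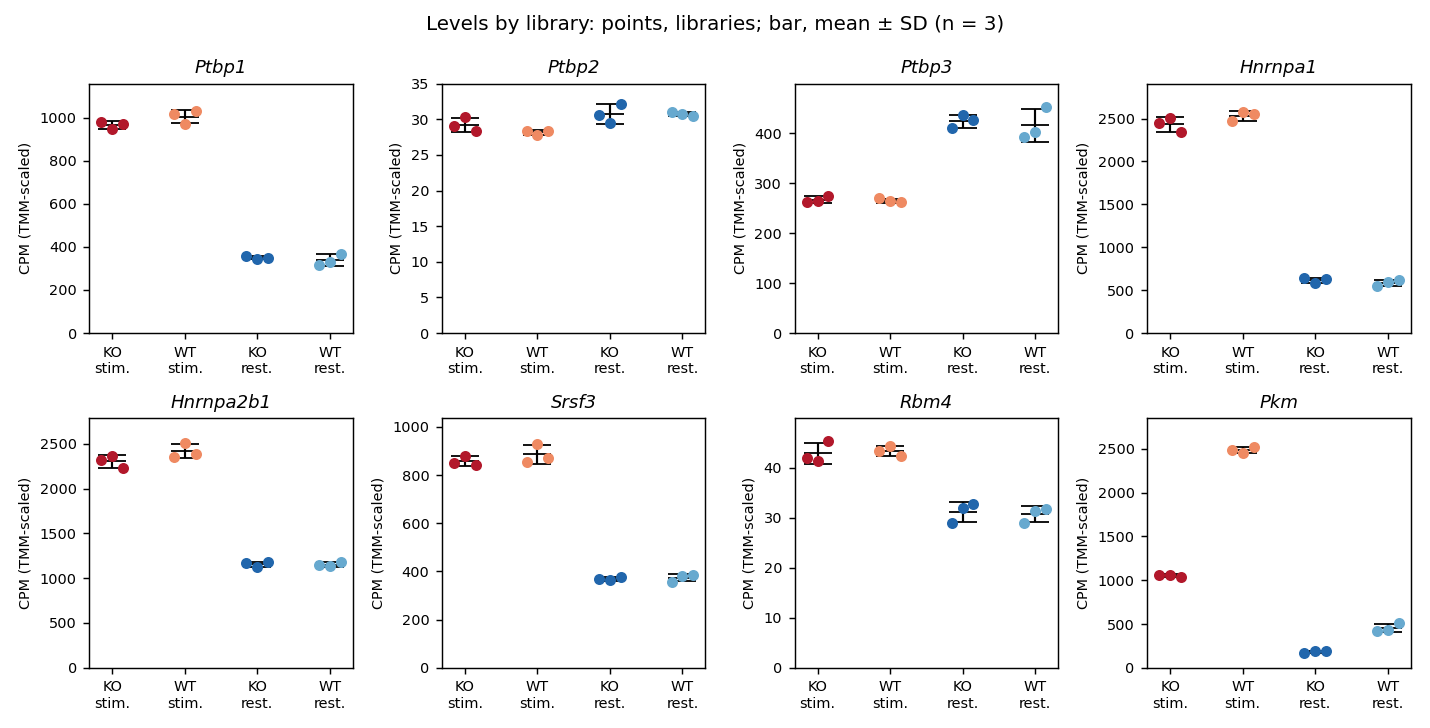
CPM (TMM-scaled, y axes from 0, each with its own range) of the 7 splicing factor genes and Pkm in stimulated KO, stimulated WT, resting KO and resting WT cells; points are libraries and bars show mean and SD (n = 3). Ptbp1, Hnrnpa1, Hnrnpa2b1 and Srsf3 separate by condition and not by genotype, whereas Pkm separates by both.

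Among the repressors of the M1 exon, Ptbp1 (chr10:79854427-79864771, mm10, plus strand) measured 980, 947 and 971 CPM in stimulated KO, 1015, 969 and 1029 CPM in stimulated WT, 357, 344 and 347 CPM in resting KO and 314, 332 and 369 CPM in resting WT libraries. Every stimulated library was above every resting one. The log2 fold change on stimulation was 1.47 in KO (95% interval 1.34 to 1.60, adjusted p = 7.2e-11) and 1.57 in WT (1.44 to 1.70, adjusted p = 3.5e-11).

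Hnrnpa1 (chr15:103240432-103246692, plus strand) encodes an abundant nuclear protein that binds pre-mRNA and often silences exons. Its level was 2446, 2511 and 2340 CPM in stimulated KO, 2468, 2573 and 2558 CPM in stimulated WT, 636, 583 and 627 CPM in resting KO and 549, 592 and 615 CPM in resting WT libraries. Its log2 fold change was 1.98 in KO (1.85 to 2.11, adjusted p = 5.5e-12) and 2.11 in WT (1.98 to 2.25, adjusted p = 2.8e-12), and 9.38% of tested genes had a larger value in WT. Annotated copies with at least 95% identity over at least 300 bases, 8 of them, took counts equal to 0.634% to 0.897% of those of Hnrnpa1.

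Hnrnpa2b1 (chr6:51460932-51469894, minus strand), a relative of Hnrnpa1, measured 2325, 2367 and 2228 CPM in stimulated KO, 2355, 2509 and 2390 CPM in stimulated WT, 1165, 1126 and 1176 CPM in resting KO and 1144, 1131 and 1181 CPM in resting WT libraries. Stimulated and resting libraries did not overlap. The log2 fold change was 1.00 in KO (0.89 to 1.11, adjusted p = 8.2e-10) and 1.07 in WT (0.96 to 1.18, adjusted p = 3.8e-10), about 1 log2 unit below that of Hnrnpa1 in each genotype.

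Srsf3 (chr17:29032628-29043373, plus strand), the gene of the SR protein that favours the M2 exon, measured 852, 881 and 841 CPM in stimulated KO, 855, 930 and 872 CPM in stimulated WT, 367, 363 and 376 CPM in resting KO and 357, 380 and 387 CPM in resting WT libraries. The conditions did not overlap. The log2 fold change was 1.22 in KO (1.11 to 1.33, adjusted p = 8.9e-11) and 1.24 in WT cells (1.13 to 1.35, adjusted p = 6.9e-11).

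The PTB paralogs went other ways. Ptbp3 (chr4:59471868-59549364, minus strand) measured 262, 264 and 275 CPM in stimulated KO, 270, 264 and 262 CPM in stimulated WT, 411, 436 and 426 CPM in resting KO and 392, 403 and 453 CPM in resting WT libraries. All stimulated libraries were below all resting ones, with a log2 fold change of -0.67 in KO (-0.79 to -0.55, adjusted p = 1.0e-07) and -0.65 in WT (-0.77 to -0.53, adjusted p = 1.4e-07). Ptbp2 (chr3:119718742-119784466, minus strand) measured 29.0, 30.3 and 28.4 CPM in stimulated KO, 28.4, 27.8 and 28.3 CPM in stimulated WT, 30.6, 29.5 and 32.2 CPM in resting KO and 31.1, 30.8 and 30.5 CPM in resting WT libraries. In KO cells the conditions overlapped, the log2 fold change was -0.08 (-0.17 to 0.02) and the test was not passed (adjusted p = 0.115); with library totals alone it was -0.40 and passed (adjusted p = 1.4e-05). In WT cells it fell by 0.13 on the log2 scale (-0.22 to -0.04, adjusted p = 0.0123), a value close to the median of all genes, and the conditions did not overlap.

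Because Ptbp1 and Ptbp3 moved in opposite directions, the make-up of the PTB mRNA differed between conditions. Levels were divided by the length of each gene's exons and scaled to the same total in each library, so that genes can be compared with each other. The shares below depend on these lengths. By CPM, without division by length, Ptbp1 was below Ptbp3 at rest, at 0.788 to 0.868 of it in KO and 0.802 to 0.824 in WT libraries. In stimulated cells it was 3.54 to 3.75 times Ptbp3 in KO and 3.67 to 3.92 times in WT libraries. Of the summed per-length level of the 3 PTB genes, Ptbp1 made up 84.4%, 83.8% and 83.7% in stimulated KO and 84.5%, 84.2% and 85.1% in stimulated WT, against 56.4%, 54.1% and 54.7% in resting KO and 54.3%, 55.0% and 54.9% in resting WT libraries. Ptbp3 made up 14.7% ± 0.376 in stimulated KO and 14.2% ± 0.410 in stimulated WT, (SD, n = 3 each), against 41.1%, 43.5% and 42.7% in resting KO and 42.9%, 42.3% and 42.7% in resting WT libraries. Ptbp2 made up 1.31% ± 0.0628 in stimulated KO, 1.23% ± 0.0183 in stimulated WT, 2.51% ± 0.110 in resting KO and 2.59% ± 0.222 in resting WT libraries (SD, n = 3 each). The shares of each gene did not overlap between conditions; an exact permutation test of 3 against 3 libraries, two-sided, cannot go below p = 0.1.

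**Figure D2:**
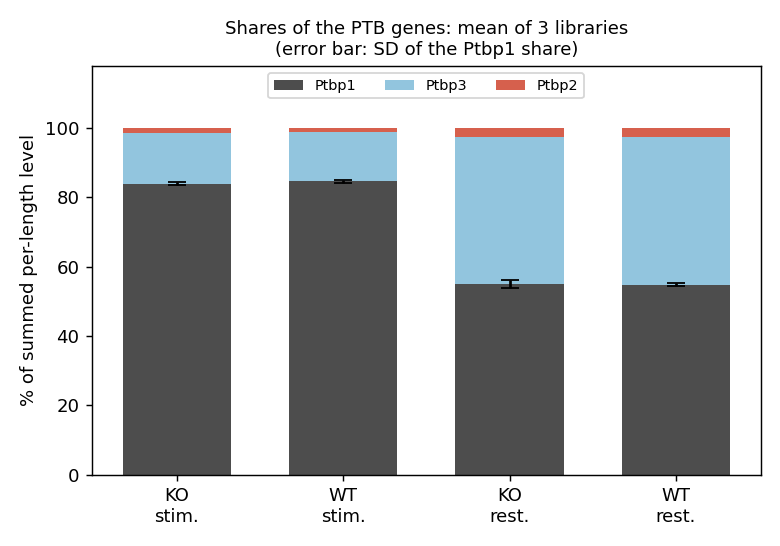
Stacked bars give the share (%, y axis) of Ptbp1, Ptbp3 and Ptbp2 in their summed per-length level, as the mean of 3 libraries in stimulated KO, stimulated WT, resting KO and resting WT cells; error bars are the SD of the Ptbp1 share. Ptbp1 makes up 84.0% and 84.6% in stimulated KO and WT cells, and 55.1% and 54.8% in resting KO and WT cells. These shares depend on the exon lengths used.

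Rbm4 (chr19:4784293-4793901, minus strand), the gene of the protein that favours the M1 exon, measured 41.9, 41.3 and 45.3 CPM in stimulated KO, 43.3, 44.2 and 42.3 CPM in stimulated WT, 28.9, 31.9 and 32.7 CPM in resting KO and 28.9, 31.3 and 31.8 CPM in resting WT libraries. It rose by a log2 value of 0.46 in KO (0.34 to 0.58, adjusted p = 6.9e-06) and 0.50 in WT cells (0.37 to 0.62, adjusted p = 3.0e-06). The neighbouring paralog Rbm4b, which shares 519 bases at 97.1% identity with Rbm4, fell in both genotypes. It averaged 19.1 ± 0.371 CPM in stimulated KO, 18.4 ± 0.869 CPM in stimulated WT, 27.2 ± 0.970 CPM in resting KO and 28.0 ± 1.44 CPM in resting WT libraries (SD, n = 3), with log2 fold changes of -0.51 in KO (adjusted p = 1.4e-06) and -0.61 in WT (adjusted p = 2.3e-07). The locus is also covered by Gm21992, which shares 1874 bases at 100% identity with Rbm4 and held 12.4% to 20.7% as many counts. With the 3 genes' counts summed the log2 fold change was 0.07 in KO (adjusted p = 0.16) and 0.07 in WT (adjusted p = 0.162), and the call was lost; how reads were split among these genes was not tested. With library totals alone it was 0.13 in KO (adjusted p = 0.0233) and 0.16 in WT (adjusted p = 0.0089).

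**Figure D3:**
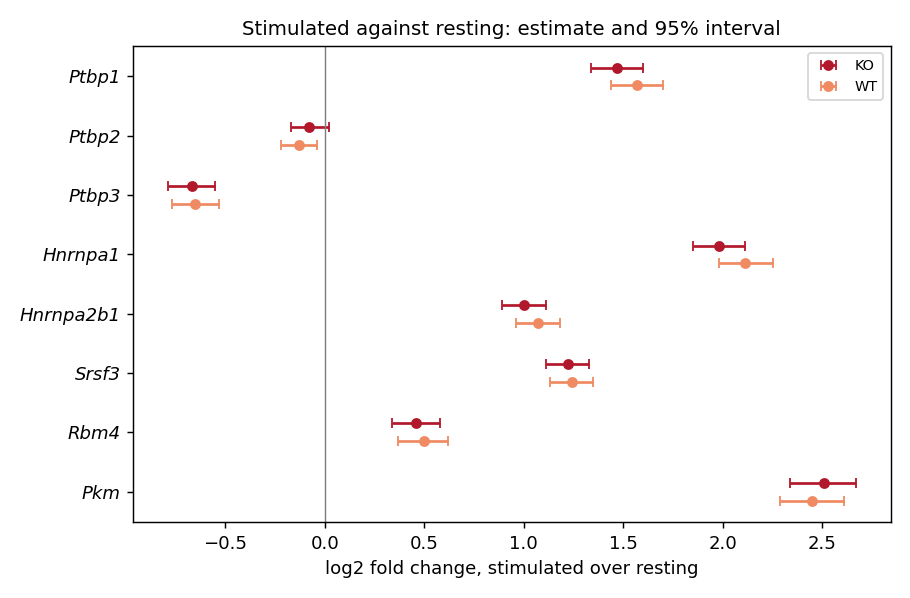
Log2 fold changes (x axis, stimulated over resting) of the 7 genes and Pkm in KO and WT cells, with 95% intervals from edgeR. Hnrnpa1, Ptbp1, Srsf3, Hnrnpa2b1, Rbm4 and Pkm lie right of 0 and Ptbp3 left of it in both genotypes, and the KO interval of Ptbp2 (-0.17 to 0.02) covers 0.

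Per length of exon, the order of the 7 genes was the same in both genotypes. In stimulated cells it was Hnrnpa1 (2207 ± 66.8 in KO, 2246 ± 30.8 in WT), Hnrnpa2b1 (means of 1002 in KO and 1026 in WT), Ptbp1 (583 ± 11.9 in KO, 593 ± 28.1 in WT), Srsf3 (311 ± 6.05 in KO, 313 ± 7.96 in WT), Ptbp3 (102 ± 3.16 in KO, 99.2 ± 2.90 in WT), Rbm4 (24.8 ± 1.37 in KO, 24.5 ± 0.398 in WT) and Ptbp2 (9.10 ± 0.260 in KO, 8.58 ± 0.259 in WT; SD, n = 3). No neighbours in this order overlapped. In resting cells Ptbp3 stood above Srsf3: per-length levels were 205 ± 2.64 and 168 ± 7.82 in KO, and 192 ± 6.35 and 164 ± 7.05 in WT cells. Hnrnpa1 (705 ± 59.3 in KO, 641 ± 28.5 in WT) and Hnrnpa2b1 (634 ± 37.0 in KO, 605 ± 16.8 in WT) were the highest at rest, with overlapping libraries in KO and ranges that met at 615 in WT cells. These lengths count every annotated exon base of a gene, and transcripts that use fewer of them have a higher true level per length.

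Genotype made no detectable difference to the 7 genes. In stimulated cells 0 of 7 were called, against 4.76% of 15090 tested genes, and in resting cells 0 of 7, against 0.0361% of 16637 genes; the background is low enough that 0 of 7 is near it in both. None of the 7 had an unadjusted p under 0.05, which 20.6% of genes had in stimulated and 13.7% in resting cells, and DESeq2 called 0. In stimulated cells the log2 fold changes of KO over WT were -0.05 ± 0.03 for Ptbp1, 0.06 ± 0.04 for Ptbp2, 0.01 ± 0.03 for Ptbp3, -0.05 ± 0.03 for Hnrnpa1, -0.06 ± 0.03 for Hnrnpa2b1, -0.04 ± 0.03 for Srsf3 and -0.01 ± 0.04 for Rbm4 (SE, edgeR's adjusted p from 0.349 to 0.943). Ptbp2 was the member whose libraries did not overlap, with the 3 KO libraries highest, at 28.4 to 30.3 CPM against 27.8 to 28.4 CPM in WT; 28.0% of tested genes did not overlap either. The 95% intervals of the 7 folds lay between 0.910 (the low end for Hnrnpa2b1) and 1.11 (the high end for Ptbp2).

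In resting cells the KO over WT log2 fold changes ran from -0.03 ± 0.05 for Srsf3 to 0.06 ± 0.07 for Hnrnpa1 (SE, adjusted p from 0.71 to 0.978), and all 7 genes overlapped between genotypes, while 19.9% of tested genes did not. Ptbp1 averaged 349 ± 7.05 CPM in KO and 338 ± 28.2 CPM in WT cells (SD, n = 3 each), a log2 fold change of 0.04 ± 0.06 (SE, adjusted p = 0.837). The 95% intervals of the folds lay between 0.897 (Srsf3) and 1.17 (Hnrnpa1). These outer bounds come from different genes and are not a limit of detection. For each gene, folds inside its own interval are not excluded with 3 libraries a group. Over the same libraries Pkm stood at 0.426 of its WT level in stimulated and 0.405 in resting KO cells.

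**Figure D4:**
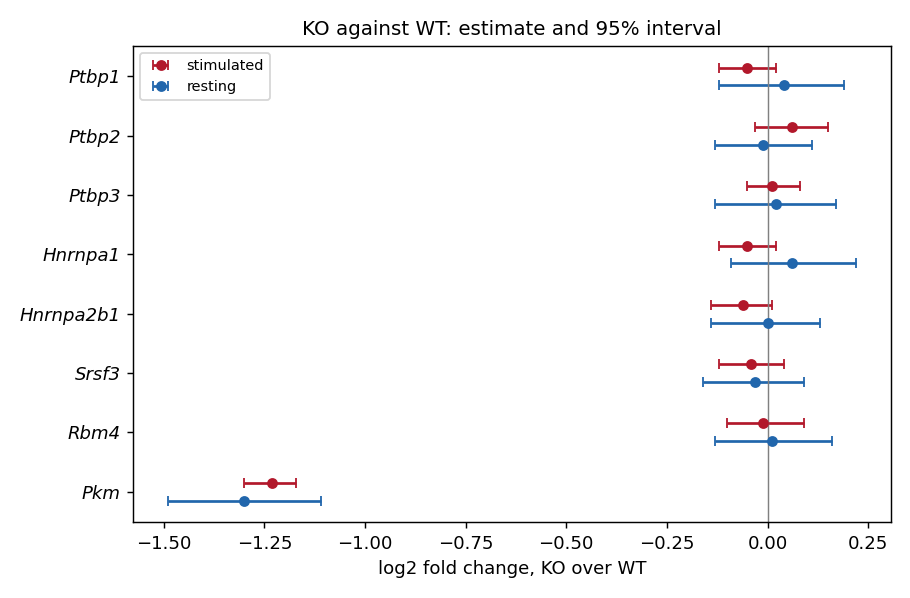
Log2 fold changes (x axis, KO over WT) of the 7 genes and Pkm in stimulated and resting cells, with 95% intervals from edgeR. The intervals of the 7 splicing factor genes cover 0 in both conditions, and Pkm lies at -1.23 in stimulated and -1.30 in resting cells.

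The response to stimulation was not shown to differ between genotypes for any of the 7 genes (0 of 7 called, 0 at an unadjusted p under 0.05, 0 by DESeq2, against 0.693% of 17460 genes called and 15.9% at that unadjusted p). The KO response minus the WT response ran from -0.13 ± 0.08 for Hnrnpa1 to 0.06 ± 0.06 for Ptbp2 on the log2 scale (SE, adjusted p = 0.467 and 0.698), with 95% intervals of -0.31 to 0.05 and -0.08 to 0.19. For Ptbp1 it was -0.10 ± 0.08 (-0.28 to 0.08, adjusted p = 0.582), and for Pkm itself 0.05 ± 0.10 (adjusted p = 0.834). These comparisons share libraries with those above and are no independent evidence.

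Set beside Pkm, the factors stood higher in KO cells, where Pkm, the denominator of the ratio, is the gene lowered by the knockout. The CPM of Ptbp1 was 0.928, 0.890 and 0.937 times that of Pkm in stimulated KO and 0.409, 0.396 and 0.408 times in stimulated WT libraries. At rest it was 2.07, 1.76 and 1.84 times that of Pkm in KO and 0.741, 0.771 and 0.726 times in WT libraries. KO libraries were above WT libraries in both conditions. For Hnrnpa1 the ratio averaged 2.31 ± 0.0501 in stimulated KO and 1.02 ± 0.0284 in stimulated WT cells, and 3.34 ± 0.350 in resting KO and 1.29 ± 0.0836 in resting WT cells (SD, n = 3 each). These ratios are not per length and serve only to compare groups.

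Other splicing genes were described from lists of families and complexes, beside 39.6% of all tested genes higher in KO and 39.3% in WT cells on stimulation. Of 24 other hnRNP genes, 23 rose and 0 fell on stimulation in each genotype (median log2 fold change 0.96 in KO and 1.05 in WT), and Hnrnph3 (0.00 in each) did not pass. Hnrnpab, an AU-rich RNA binder, changed most, by 2.50 in KO and 2.62 in WT on the log2 scale, and averaged 1672 ± 49.4 CPM in stimulated KO, 1771 ± 52.7 CPM in stimulated WT, 296 ± 5.95 CPM in resting KO and 287 ± 22.5 CPM in resting WT cells (SD, n = 3). Pcbp1, a poly(C)-binding protein gene, rose by 1.61 in KO and 1.72 in WT. Of 12 other SR and TRA2 genes, 10 rose and 2 fell in each genotype (median 1.03 in KO, 0.99 in WT). Srsf1, which encodes a general activator of exons, rose by 1.40 in KO and 1.55 in WT, and Srsf2 by 1.43 in KO and 1.41 in WT. The 2 that fell were Srsf5 (-0.42 in KO, -0.33 in WT) and the weakly expressed Srsf12 (-2.25 in KO, -1.63 in WT).

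Kinases that phosphorylate SR proteins went the other way. Of 8, 0 rose and 8 fell in KO cells (median -0.74), and 0 rose and 7 fell in WT cells (median -0.76), where Srpk1 did not pass (-0.14, adjusted p = 0.0858). Over all tested genes 43.2% were lower in KO and 44.8% in WT cells. Clk1 averaged 160 ± 3.13 CPM in stimulated KO, 155 ± 3.66 CPM in stimulated WT, 393 ± 9.90 CPM in resting KO and 433 ± 17.7 CPM in resting WT cells (SD, n = 3 each), a log2 fold change of -1.30 in KO and -1.49 in WT. Srpk2 changed by -1.55 in KO and -1.51 in WT. Srpk3, an X-linked kinase gene at 0.405 ± 0.0649 CPM in stimulated KO, 0.123 ± 0.0287 CPM in stimulated WT, 9.71 ± 1.25 CPM in resting KO and 8.31 ± 1.38 CPM in resting WT cells, changed by -4.59 in KO and -6.08 in WT.

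**Figure D5:**
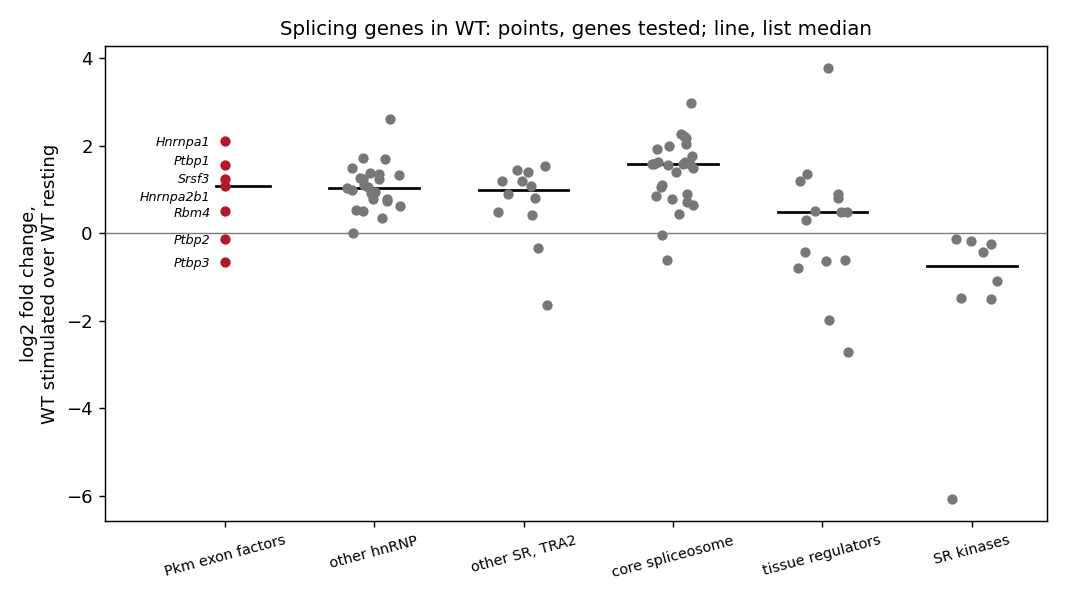
Log2 fold changes (y axis, WT stimulated over WT resting) of the tested genes of 6 lists; red points are the 7 Pkm exon factors, grey points the genes of other lists (spread sideways for legibility), and short lines the list medians. Medians lie at 1.07 for the 7 genes, 1.05 for other hnRNP, 0.99 for other SR and TRA2, 1.58 for core spliceosome, 0.48 for tissue regulator and -0.76 for SR kinase genes.

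Partners of the PTB proteins and relatives of RBM4 went both ways, with 3 of 5 rising and 2 falling in each genotype, beside 39.6% of all genes higher and 43.2% lower in KO and 39.3% higher and 44.8% lower in WT cells. Raver1, which encodes a co-repressor that binds PTB, rose to 313 ± 2.82 CPM in stimulated KO and 317 ± 15.6 CPM in stimulated WT, against 161 ± 2.41 CPM in resting KO and 149 ± 9.67 CPM in resting WT cells (SD, n = 3). Raver2, its relative, fell to 1.95 to 2.49 CPM in stimulated KO and 2.55 to 2.85 CPM in stimulated WT libraries, against 10.8 to 12.1 CPM in resting KO and 11.4 to 12.7 CPM in resting WT libraries. Matr3, encoding another PTB partner, rose by 0.69 in KO and 0.79 in WT on the log2 scale. Medians over these lists are descriptions only.

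Myc, whose protein is known from human cell lines to raise transcription of PTBP1, HNRNPA1 and HNRNPA2B1, measured 498, 485 and 476 CPM in stimulated KO, 477, 536 and 518 CPM in stimulated WT, 60.0, 67.6 and 65.2 CPM in resting KO and 59.3, 54.8 and 60.8 CPM in resting WT libraries. Its log2 fold change on stimulation was 2.92 in KO and 3.13 ± 0.06 in WT (SE, adjusted p = 2.3e-13), and it was not called between genotypes in either condition. Nek2, the gene of a mitotic kinase reported in human myeloma cells to bind HNRNPA1 and HNRNPA2B1, averaged 52.0 ± 1.91 CPM in stimulated KO, 53.2 ± 1.31 CPM in stimulated WT, 3.33 ± 2.21 CPM in resting KO and 2.41 ± 0.557 CPM in resting WT cells (SD, n = 3).

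CACGTG, the E-box that MYC is known to bind (a palindrome, so both strands are read at once), was looked for in RefSeq promoter windows of GRCm38.p6, from 250 bases before to 50 after the start. Windows were found for 6 of the 7 genes, all but Ptbp3. The motif occurred in 1 of the 6, that of Ptbp1, beginning 45 bases before the start, while 8.09% of 27025 genes with a window held it. The Ptbp1 window is shown because it holds the motif, which is in capitals. Hnrnpa1, Hnrnpa2b1, Srsf3 and Rbm4 also rose on stimulation, and their windows held 0 matches. The Ptbp1 match is a description and not evidence of binding.

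Ptbp1 promoter, chr10:79854182-79854481, plus strand: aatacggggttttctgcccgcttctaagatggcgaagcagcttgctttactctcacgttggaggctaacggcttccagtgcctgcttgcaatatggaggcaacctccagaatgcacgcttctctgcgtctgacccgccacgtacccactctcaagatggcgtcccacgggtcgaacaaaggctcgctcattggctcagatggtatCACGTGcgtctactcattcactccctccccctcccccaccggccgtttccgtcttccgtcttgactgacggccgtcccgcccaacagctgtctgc

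Genes with the profile closest to that of each member were sought among 8854 genes over the 12 libraries, by the root mean square distance between log2(CPM + 1) profiles, each centred on its own mean. For Ptbp1 these were Ddb1, Aifm1 and Desi1 at 0.03 and Zmym1 and Dhx9 at 0.04 log2 units. The closest were Cyld for Ptbp3 (0.02), Sgta for Hnrnpa2b1 (0.03), Samm50 for Srsf3 (0.03), Supt16 for Hnrnpa1 (0.04), Plekha3 for Rbm4 (0.04) and Dync1li2 for Ptbp2 (0.04). Pkm, which differs by genotype too, had no such near match, with Farp1 closest at 0.43 log2 units. With most genes moving on stimulation, such distances chiefly describe how alike the stimulation folds are.

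Between genotypes these lists held few calls. In stimulated cells Mbnl1, encoding a muscleblind splicing regulator, was higher in KO, at 1024 ± 22.1 CPM against 600 ± 8.69 CPM in WT (SD, n = 3 each), a log2 fold change of 0.78 ± 0.03 (SE, adjusted p = 9.0e-07). In resting cells it averaged 1643 ± 11.6 CPM in KO and 927 ± 71.5 CPM in WT cells (SD, n = 3 each), a log2 fold change of 0.82 ± 0.07 (SE, adjusted p = 0.02). That call was lost without resting WT replicate 2 (adjusted p = 0.24) or without resting KO replicate 1, 2 or 3 (adjusted p = 0.123, 0.295 and 0.29), while the log2 fold change stayed between 0.78 and 0.87 with any 1 of the 6 resting libraries left out. Srpk3 was higher in stimulated KO cells (1.72 ± 0.34, adjusted p = 0.0219) and its response differed between genotypes (1.49 ± 0.30, adjusted p = 0.0462). It was weakly expressed in stimulated cells, at 0.360 to 0.479 CPM in KO and 0.0904 to 0.143 CPM in WT libraries. Its lowest count in any library was 6. The stimulated call of Srpk3 was lost without stimulated WT replicate 1 or 3 or any of the 3 stimulated KO libraries (adjusted p from 0.0654 to 0.101). Its log2 fold change stayed between 1.54 and 1.84 with any 1 of the 6 stimulated libraries left out. In leave-one-out fits of the 12 libraries the call on its response was kept in 3 of 12. The calls of Mbnl1 and Srpk3 in stimulated cells stood beside the higher myeloid, B and CD8 T cell marker sums in stimulated KO libraries given above, whose part in them was not tested. The 24 other hnRNP, 12 other SR and TRA2 and 27 core spliceosome genes had 0 calls between genotypes in either condition. Over all tested genes 4.76% were called in stimulated and 0.0361% in resting cells, and at rest so low a share leaves 0 calls uninformative. In stimulated cells 5 of 24, 0 of 12 and 8 of 27 had an unadjusted p under 0.05, beside 20.6% of all genes tested. Those 5 and 8 were all lower in KO. The share of all genes lower at that unadjusted p was not determined, so nothing is read from this direction.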

How the data were processed

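Gene-level expected counts (RSEM estimates that need not be whole, 1 table per condition), as the authors deposited them, were rounded to whole numbers. Tools named in the submitters' processing notes are STAR 2.7.0f, RSEM 1.3.1, cutadapt 1.18 and bcl2fastq 2.20, with the build mm10. Per the labels' protocols the kit was stranded; the strand setting of the counting was not given in the sources used here, so overlapping genes and close copies are uncertain. The labels' library letters tied columns to samples. Symbols and coordinates came from GENCODE M21.

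Genes passing filterByExpr (minimum count 10, minimum total 15) were TMM-scaled and tested with edgeR 4.0.16 in R 4.3.3 (robust quasi-likelihood F-test, Benjamini-Hochberg adjustment, threshold 0.05). KO and WT were compared within the 6 libraries of a condition, stimulation and the difference of responses in 1 fit of 4 group means over 12 libraries. The fit was tested on simulated data. Close copies were found with BLAST 2.17.0. No replicates were as alike as sampling noise. Replicate numbers were not taken as pairs, since same-numbered libraries deviated together in some pairs only.

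The 7 genes and the lists were chosen with earlier results of these data known. The named genes were the 7, Pkm, Myc, Nek2, up to 4 called genes with the largest change per list and comparison, and the nearest profiles; not all are named. Srsf5, Hnrnph3, Srpk1, Rbm4b, Gm21992, Ighd and Cd8b1 were chosen after their values were seen. Alternatives were DESeq2 1.42.0 and its size factors, no filter, all 12 libraries in 1 fit, a replicate block and each library left out. Library totals, erythroid-high libraries left out and summed copies were added after seeing the data.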

Additional observations from a re-analysis of the deposited data

How the results depend on the processing

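On stimulation, Hnrnpa1, Ptbp1, Srsf3, Hnrnpa2b1 and Ptbp3 kept their direction and their call in both genotypes under all alternatives run, and Rbm4 under all but the summing with Rbm4b and Gm21992. Ptbp2 was called in KO only with library totals and stayed called in WT. The number of the 7 genes called was 0 in both genotype comparisons and in the difference of responses under all alternatives. With 3 libraries a group, differences of a few percent are beyond these data.

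Counts over all genes moved more. Genes called between KO and WT in resting cells (6) came to 518 with DESeq2, 40 without a filter, 161 with all 12 libraries in the fit, 30 without the erythroid-high libraries and 2 to 18 with 1 library left out. In stimulated cells (719) they came to 1133 with DESeq2, 219 with all 12 libraries and 128 to 1408 with 1 library left out. For the difference of responses (121) they came to 1012 with DESeq2, 209 without the erythroid-high libraries and 27 to 1646 with 1 library left out. The cause was not tested. With library totals the share of higher calls on stimulation was 37.8% in KO and 37.2% in WT, against 47.8% in KO and 46.7% in WT with TMM.

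Values near 0 changed sign. With library totals the resting KO over WT log2 values were 0.01 for Ptbp2 and 0.02 for Hnrnpa2b1, and that of Rbm4 in stimulated cells was 0.01. With all 12 libraries that of Hnrnpa2b1 at rest was 0.00. Without the erythroid-high libraries Ptbp1 was at -0.03 and Ptbp2 at 0.00 at rest, and the difference of responses was 0.01 for Ptbp3 and 0.02 for Srsf3. Rbm4 summed with its copies gave -0.01 at rest, 0.00 in stimulated cells and 0.00 for the difference of responses. With 1 library left out the ranges were, at rest, Ptbp1 -0.01 to 0.09, Ptbp2 -0.05 to 0.02, Ptbp3 -0.01 to 0.07, Rbm4 -0.02 to 0.06, Hnrnpa2b1 -0.02 to 0.02. In stimulated cells they were Rbm4 -0.05 to 0.02, Ptbp3 -0.01 to 0.03, and for the difference of responses Ptbp3 -0.09 to 0.02, Srsf3 -0.05 to 0.02, Rbm4 -0.09 to 0.01, Pkm -0.03 to 0.11.

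Same-numbered libraries deviated together in some pairs only (correlations of -0.18 to 0.39 at rest and -0.06 to 0.11 in stimulated cells between genotypes), so the numbers were not taken as pairs. With the replicate block 5 genes were called at rest, 997 in stimulated cells, 14442 and 14615 on stimulation in KO and WT, and 95 for the difference, with 0, 0, 6, 7 and 0 of the 7 genes among them.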

Other observations

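The core spliceosome rose almost as a whole on stimulation. Of 27 genes, 25 rose and 2 fell in KO cells, and 25 rose and 1 fell in WT cells, with median log2 fold changes of 1.48 in KO and 1.58 in WT (edgeR, against 39.6% of all genes higher in KO and 39.3% in WT). Snrpd1, which encodes a protein of the Sm ring of the spliceosomal particles, stood at 185 to 198 CPM in stimulated KO and 196 to 218 CPM in stimulated WT, against 25.6 to 27.2 CPM in resting KO and 24.8 to 27.4 CPM in resting WT libraries. U2af1, whose protein reads the end of introns, averaged 306 ± 8.34 CPM in stimulated KO and 315 ± 13.5 CPM in stimulated WT, against 67.8 ± 1.05 CPM in resting KO and 67.1 ± 2.40 CPM in resting WT cells (SD, n = 3 each). Sf3b1, encoding a subunit that holds the branch point, fell by 0.66 in KO and 0.61 in WT on the log2 scale.

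Regulators known from particular tissues were mixed, with 7 of 15 tested genes rising and 6 falling in KO cells, and 8 rising and 6 falling in WT cells. Over all genes 39.6% were higher and 43.2% lower in KO, and 39.3% higher and 44.8% lower in WT cells, so these counts do not set the list apart. Most of those named next fell, although more of the list rose. Mbnl1 changed by -0.68 in KO and -0.63 in WT, Mbnl2 by -0.67 in KO and -0.61 in WT, and Tia1 by -0.96 in KO and -0.79 in WT. Mbnl3, an X-linked relative, averaged 34.8 ± 1.62 CPM in stimulated KO and 34.5 ± 3.97 CPM in stimulated WT, against 14.2 ± 0.225 CPM in resting KO and 13.4 ± 2.23 CPM in resting WT cells (SD, n = 3 each). Sf3b1, Mbnl2 and Tia1 were chosen after their values were seen.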
